A study of Arabidopsis thaliana with 18 samples.

Results

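The comparison described here is the difference between 2 ultraviolet responses: that of the flavonoid mutant tt4 and that of the wild type. For each probe set of an Arabidopsis array, the light effect was the mean log2 signal under ultraviolet light (UV) minus that in the control light (CO). The interaction was the light effect in tt4 minus the light effect in the wild type Col-0 (WT), so a positive value means that the signal moved further up, or less far down, under UV in tt4. It rests on 12 of the 18 arrays of the series, 3 each of WT_UV, WT_CO, tt4_UV and tt4_CO. The question is which UV-responsive genes respond more or less when flavonoids are missing, by how much and in which direction. Here 8528 probe sets (37.5%) count as UV-responsive, because the mean of their WT and tt4 light effects passed limma's test at an adjusted p under 0.05. That mean is computed independently of the interaction in this balanced design, although both tests use the same estimate of the spread.

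All plants had the genetic background Col-0, were 18 days old at harvest and gave RNA from the aerial region, with a single plant on each array. They grew for 17 days at 22 °C on solid medium with 1% sucrose, in days of 16 h light and 8 h dark. On day 18 the UV groups received 24 h of ultraviolet light and the CO groups 8 h of extra light, which made that day continuous light. The labels do not say whether the UV plants also had the extra light, so UV and a difference in visible light cannot be told apart, in WT or in tt4. The labels name the mutants by gene and give no allele. tt4 (TRANSPARENT TESTA4) is impaired in flavonoid synthesis. The 6 arrays of sng1, a mutant impaired in the synthesis of sinapoyl malate, entered the model for its estimate of the spread between plants and are given beside some results.

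TT4 encodes chalcone synthase, which joins a phenylpropanoid precursor with malonyl units and so makes the first compound of the flavonoid pathway. Plants without its activity make neither flavonols nor anthocyanins. Flavonols collect in the epidermis of leaves and absorb UV-B, and both classes of compound can act as antioxidants. UV-B light is sensed by the photoreceptor UVR8, which acts through the transcription factors HY5 and HYH to raise genes of the flavonoid pathway, while stronger UV also calls up repair, oxidative stress and defence responses.

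The 3 arrays of lowest estimated quality weight among the 12 were tt4_UV 3 (0.513), tt4_CO 2 (0.573) and WT_CO 2 (0.618), where an average array would have 1. Within the groups used here, arrays correlated at 0.972 to 0.986 (Pearson r over log2 signals). The 3′ to 5′ log2 ratio of the GAPDH control, a sign of RNA quality, was 0.185 higher under UV in WT and 0.0522 higher in tt4, a difference of −0.132 with an SD between plants of 0.0866. The same ratio of the actin control was 0.533 higher in WT and 0.0908 higher in tt4, with WT_UV 3 far above its group at 1.95. The part of these ratios in the interactions was not tested. Neither TT4 nor SNG1 has a named probe set here, and a check of the mutants through these transcripts was not analysed here.

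A single probe set passed the test of the interaction, 1 of 22746 (0.0044%, limma, adjusted p under 0.05). It was the probe set 250207_at, whose gene is not named in the tables used here and which is therefore given by its identifier. It lies outside the rule for named genes and was chosen after its values were seen. Its log2 signal in WT was 8.95, 8.75 and 9.21 in CO and 13.00, 13.09 and 13.20 under UV. In tt4 it was 7.93, 8.05 and 8.10 in CO and 7.31, 7.5 and 7.79 under UV. The 3 sng1 plants under UV gave 13.06, 13.15 and 12.97, close to the WT plants, against 9.28, 8.30 and 7.93 in CO. UV and CO plants did not overlap in any of the 3 genotypes, and they stood in the opposite order in tt4.

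The signal of 250207_at rose 17.5-fold under UV in WT (4.13 ± 0.26 on the log2 scale, SE, n = 3 against 3, limma adjusted p = 1.39e-06) and by 4.56 in sng1. In tt4 the light effect was −0.49 ± 0.26 and did not pass (adjusted p = 0.189). The interaction was −4.62 ± 0.36, with a 95% interval from −5.40 to −3.84 and an adjusted p of 0.000279. This is a UV effect 24.6-fold smaller in tt4 than in WT. Most of the gap lay under UV, where tt4 was 5.57 below WT (adjusted p = 4.2e-07), while in CO it was 0.94 below WT without passing (adjusted p = 0.668), although the plants did not overlap there either. Leaving out any 1 of the 12 arrays gave −4.75 to −4.51, and the call held in all 22 alternative analyses. In whole aerial parts, fewer cells that make a transcript and less transcript per cell cannot be told apart, here and in the results that follow.

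**Figure D1:**
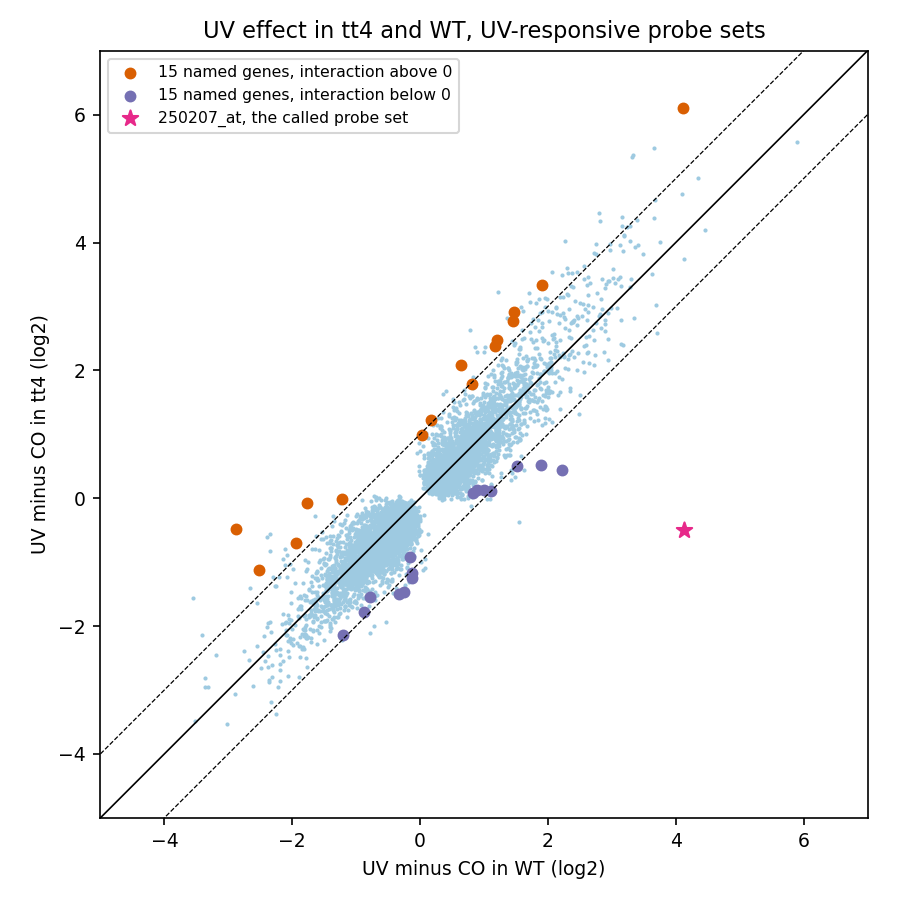
Each point is 1 of the 8528 UV-responsive probe sets, with UV minus CO in WT on the horizontal axis and in tt4 on the vertical axis, both in log2. The solid line marks equal effects and the dashed lines a 2-fold difference; the star, 250207_at, stands alone at 4.13 in WT and −0.49 in tt4, and the coloured points are the 30 named genes, none of which was called.

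No other probe set passed at this number of plants, and the next smallest adjusted p was 0.421. At an unadjusted p under 0.05, 1032 probe sets (4.54%) had an interaction, 397 of them positive (1.75%) and 635 negative (2.79%). Of these 1032, 628 had 1 gene in the annotation, 376 had none listed, and 735 reached a group mean of at least 64 in signal. The median SE of an interaction was 0.24, so that a typical 95% interval reached 0.52 to either side, or less than a 2-fold difference.

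The responses themselves were broad and largely shared. UV changed 5540 probe sets in WT (24.4%) and 6080 in tt4 (26.7%), and 4254 passed in both genotypes, which is 76.8% of the WT calls and 70.0% of the tt4 calls. Of the shared calls, 4252 went the same way. The exceptions were AT5G01800, which encodes a saposin-like protein, and the unnamed probe set 252716_at, both named because they are the 2 exceptions. AT5G01800 was 0.17 lower under UV in WT and 0.17 higher in tt4, with an interaction of 0.34 (adjusted p = 0.768). Probe set 252716_at was 0.59 higher in WT and 0.53 lower in tt4, with an interaction of −1.12 (adjusted p = 0.421). Neither interaction passed, so neither is shown to differ.

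A call in a single genotype is not a test of a difference. Of 1286 probe sets called in WT alone, 91.4% had a light effect of the same sign in tt4, with a median size of 0.53 in WT and 0.26 in tt4. Of 1826 called in tt4 alone, 92.4% had the same sign in WT, with a median size of 0.28 in WT and 0.57 in tt4. These sizes follow from the choice of the sets by their calls and are given as a description.

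For most UV-responsive probe sets the data bound the difference of the responses. The whole 95% interval of the interaction lay within a 2-fold difference for 6540 of 8528 (76.7%), beside 68.4% of all probe sets. The test that chose these 8528 uses the same spread, which favours narrow intervals (median SE 0.216, beside 0.240 for all probe sets). Among the 1707 with a mean light effect of at least 2-fold, whose signals varied more between plants, 635 (37.2%) had an interval within 2-fold. An interaction of at least 2-fold in size was measured in 107 UV-responsive probe sets (1.25%, beside 1.95% of all probe sets), of which 250207_at is the called one. Across the 8528 probe sets the WT and tt4 light effects correlated with r = 0.944. This is a description, since the points share arrays and were chosen for their mean effect.

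By direction, the 4178 probe sets that rose under UV (18.4%) had a median interaction of 0.01, and 51.7% of them had the larger rise in tt4. The 4350 that fell (19.1%) had a median of −0.07, and 63.1% had the deeper fall in tt4. Over the alternatives the first median ran from −0.04 to 0.05 and the second from −0.13 to −0.02, so the sign of the first depends on the scaling and on single plants. Among those that rose at least 2-fold the median interaction was 0.16 (n = 899), and among those that fell at least 2-fold it was −0.11 (n = 808). Neither of these medians has a spread between plants beside it or was recomputed in the alternatives, so no difference is read from them.

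**Figure D2:**
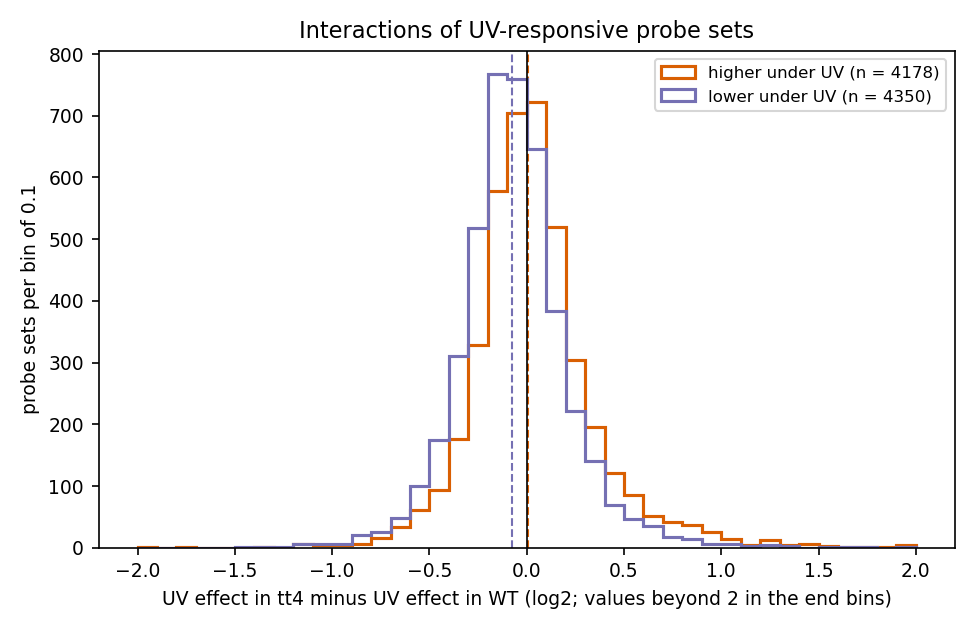
The histogram counts UV-responsive probe sets by interaction, in bins of 0.1 on the log2 scale, for the 4178 that rose and the 4350 that fell under UV; dashed lines are the medians, 0.01 and −0.07. Both sets are centred near 0, and the set that fell lies slightly further left.

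The sng1 arrays, which are outside the comparison, gave a choice of UV-responsive genes by the light effect of other plants, although the spread in its test came from all 18 arrays, WT and tt4 included. Of the probe sets called and at least 2-fold higher under UV in sng1, 743 in all (3.27%), the median light effect was 1.40 in WT and 1.49 in tt4. Their median interaction was 0.09, against an SD of 0.23 between plants of the same group in the mean of the set. The 637 that were at least 2-fold lower in sng1 (2.8%) had medians of −1.20 in WT and −1.26 in tt4, with a median interaction of −0.11 and an SD of 0.15. In both sets the gap between the genotypes was thus smaller than the spread between plants.

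The transcripts that rose at least 4-fold in sng1 leaned most towards tt4. These 174 probe sets (0.765%) had a median light effect of 2.46 in WT and 2.77 in tt4, and 70.7% of them had the larger rise in tt4. Their median interaction of 0.34 was still below the SD of 0.41 between plants. It also turned on single plants, with −0.003 without WT_CO 3, 0.15 without tt4_CO 2 and 0.67 without WT_CO 2. The median of the wider set of 743 took the opposite sign without WT_UV 1 (−0.02), WT_CO 3 (−0.04) or tt4_CO 2 (−0.02).

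The named genes come from a rule that takes the 15 measured interactions of largest size in each direction. With no called probe set of a named gene, all 30 places went to UV-responsive genes with an unadjusted p under 0.05 and a group mean of at least 64 in signal, 15 of 81 positive and 15 of 168 negative ones. None of the 30 passed in limma (adjusted p 0.768 to 1), so the values below rank what was measured and show no difference between the genotypes. All 30 kept their sign in every alternative, but they had been chosen for large interactions in these same data. The kept signs are therefore no support for them. In 6 of the 15 in each direction the gap between tt4 and WT was larger under UV than in CO, and in the other 9 it was larger in CO.

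Among the 15 positive interactions, 10 belonged to transcripts with a higher mean under UV, which rose further in tt4 as measured. AT3G48640 had log2 signals of 6.25, 4.19 and 6.89 in WT_CO and 10.11, 10.22 and 9.34 in WT_UV. In tt4 it had 4.74, 4 and 4 in CO and 10.28, 10.86 and 9.91 under UV, where 4 is the floor set on the signal. The UV plants of both genotypes overlapped and the tt4 plants in CO lay low, with 2 at the floor. This gives light effects of 4.11 in WT and 6.11 in tt4, and the interaction of 1.99 ± 0.79 was 0.84 with a floor of 64.

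AT4G39830, a gene of the ascorbate oxidase family, showed the same layout with all plants above the floor. Its signals were 5.99, 6.63 and 7.29 in WT_CO against 5.43, 5.34 and 5.78 in tt4_CO, without overlap. Under UV they were 7.72, 8.11 and 7.69 in WT and 8.36, 8.09 and 7.52 in tt4, with overlap. The interaction was 1.27 ± 0.40 (unadjusted p = 0.00783, adjusted p = 1), and 0.79 with a floor of 64. AT4G39670, which encodes a glycolipid transfer protein, had an interaction of 1.33 ± 0.51, with WT and tt4 plants apart in CO (6.25 to 7.07 against 5.68 to 6.14) and mixed under UV. AT5G39670, for an EF-hand calcium-binding protein, had 1.43 ± 0.63 from light effects of 1.91 in WT and 3.34 in tt4, and 0.84 without WT_CO 3.

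AT4G17670, a gene for a zinc finger protein of the FLZ family, had the gap mainly under UV. Its signals were 7.33, 7.43 and 7.47 in WT_UV and 8.08, 8.10 and 7.87 in tt4_UV, without overlap, while CO plants of both genotypes overlapped. The light effect was 0.18 in WT and 1.23 in tt4, and the interaction of 1.05 ± 0.29 had the lowest adjusted p among the positive ones (0.938). AT1G72700, a gene for a phospholipid-transporting ATPase, had light effects of 0.03 in WT and 0.99 in tt4 and an interaction of 0.97 ± 0.35. The remaining members with a higher mean under UV were AT2G44010 (1.44, with all tt4_CO plants at the floor), AT1G51920 (1.43), AT2G18690 (1.21, and 0.78 without WT_CO 3) and AT5G41860 (0.98). With a floor of 64 the values of AT2G44010, AT1G51920 and AT5G41860 were 0.08, 0.68 and 0.24.

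The other 5 positive interactions belonged to transcripts with a lower mean under UV, whose measured fall was smaller in tt4. HIS1-3, a linker histone that is known to rise in drought, had signals of 9.65, 8.60 and 10.09 in WT_CO and 7.07, 6.07 and 6.59 in WT_UV. In tt4 the CO plants gave 9.35, 8.21 and 6.82 and the UV plants 7.72, 6.97 and 8.22. The WT groups were apart while the tt4 plants in CO spanned the tt4 plants under UV. UV minus CO came to −2.88 in WT and −0.49 in tt4. The interaction of 2.39 ± 0.98 ran from 1.73 without tt4_CO 3 to 3.00 without tt4_CO 1.

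AT1G22160, another FLZ zinc finger gene, had light effects of −1.76 in WT and −0.07 in tt4 (interaction 1.69 ± 0.67). AT2G45600, a carboxylesterase gene, had −1.23 and −0.02 (1.21 ± 0.38), with UV plants of WT (5.75 to 6.93) below or level with those of tt4 (6.93 to 7.40). AT4G09890 had −1.94 and −0.71 (1.24 ± 0.35), and AT1G69080 had −2.52 and −1.13 (1.40 ± 0.63, and 0.39 with a floor of 64), with all WT_UV plants at the floor.

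**Figure D3:**
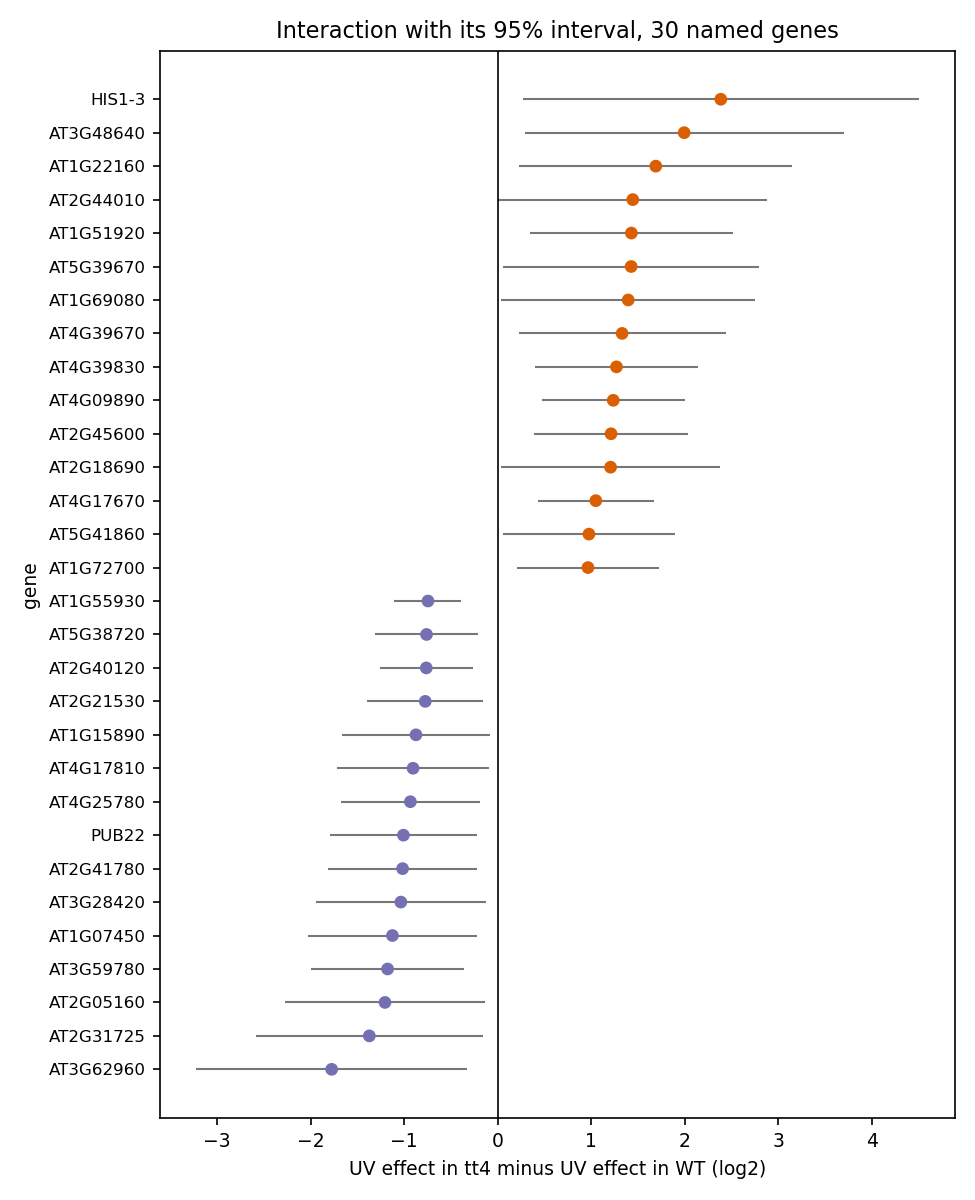
Points are the interactions of the 30 named genes (UV effect in tt4 minus UV effect in WT, log2) and lines their unadjusted 95% intervals. The 15 positive values run from 0.97 to 2.39 and the 15 negative ones from −1.78 to −0.75; every interval ends short of 0 because an unadjusted p under 0.05 was part of the rule, and none passed after adjustment.

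Among the 15 negative interactions, 7 belonged to transcripts with a higher mean under UV, whose measured rise was smaller in tt4. AT1G55930, which encodes a protein with CBS domains, had the smallest p of the 30. Its signals were 7.54, 7.52 and 7.73 in WT_CO and 8.34, 8.33 and 8.61 in WT_UV, against 8.05, 7.97 and 8.10 in tt4_CO and 7.91, 8.16 and 8.30 in tt4_UV. The tt4 plants overlapped between the lights and lay between the WT groups. The light effect was 0.83 in WT and 0.08 in tt4, with an interaction of −0.75 ± 0.17 (unadjusted p = 0.000624, adjusted p = 0.768).

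AT3G62960, a glutaredoxin gene, had the largest negative value. All WT_CO plants were at the floor, while the tt4_CO plants had 4.92, 6.07 and 5.12. The interaction of −1.78 ± 0.67 became −0.31 with a floor of 64. PUB22, a ubiquitin ligase that dampens immune responses, had a light effect of 1.12 in WT and 0.11 in tt4 (−1.01 ± 0.36). AT1G15890, a gene of the nucleotide-binding, leucine-rich repeat class of immune receptors, had 0.99 and 0.12 (−0.87 ± 0.36). AT5G38720 had 0.90 and 0.14 (−0.76 ± 0.25). The others were AT2G31725 (−1.37) and AT2G41780 (−1.02), which had −0.51 and −0.19 with a floor of 64, and AT2G31725 had −0.89 without WT_CO 2.

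The other 8 had a lower mean under UV and a deeper measured fall in tt4. AT3G59780, which encodes a rhodanese-like protein, had 9.09, 9.61 and 9.94 in WT_CO and 9.35, 8.68 and 9.63 in WT_UV. In tt4 it had 10.12, 10.21 and 9.38 in CO and 8.26, 8.41 and 8.54 under UV, without overlap between the lights or with the WT plants under UV. The light effect was −0.32 in WT and −1.50 in tt4 (interaction −1.18 ± 0.38, adjusted p = 1).

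AT4G25780, a gene of the PR-1-like CAP family, had −1.21 in WT and −2.14 in tt4 (−0.93 ± 0.34), with 5.08 to 5.82 in WT_UV and 4.54 to 4.71 in tt4_UV. AT4G17810, for a zinc finger protein, had −0.88 and −1.78 (−0.90 ± 0.38), and AT2G21530, for a protein with a forkhead-associated domain, had −0.78 and −1.55 (−0.77 ± 0.29). The remaining values were −1.21 for the zinc finger gene AT2G05160, −1.13 for the tropinone reductase-like gene AT1G07450, −1.04 for AT3G28420 and −0.76 for the protein kinase gene AT2G40120. With a floor of 64, AT4G25780 had −0.20, AT2G05160 −0.32, AT1G07450 −0.22 and AT3G28420 −0.13. Without tt4_UV 3, AT2G05160 had −0.72, and without WT_CO 2, AT1G07450 had −0.75. In all, 13 of the 30 interactions were over 1.5 times smaller with that floor, each with its value given above.

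**Figure D4:**
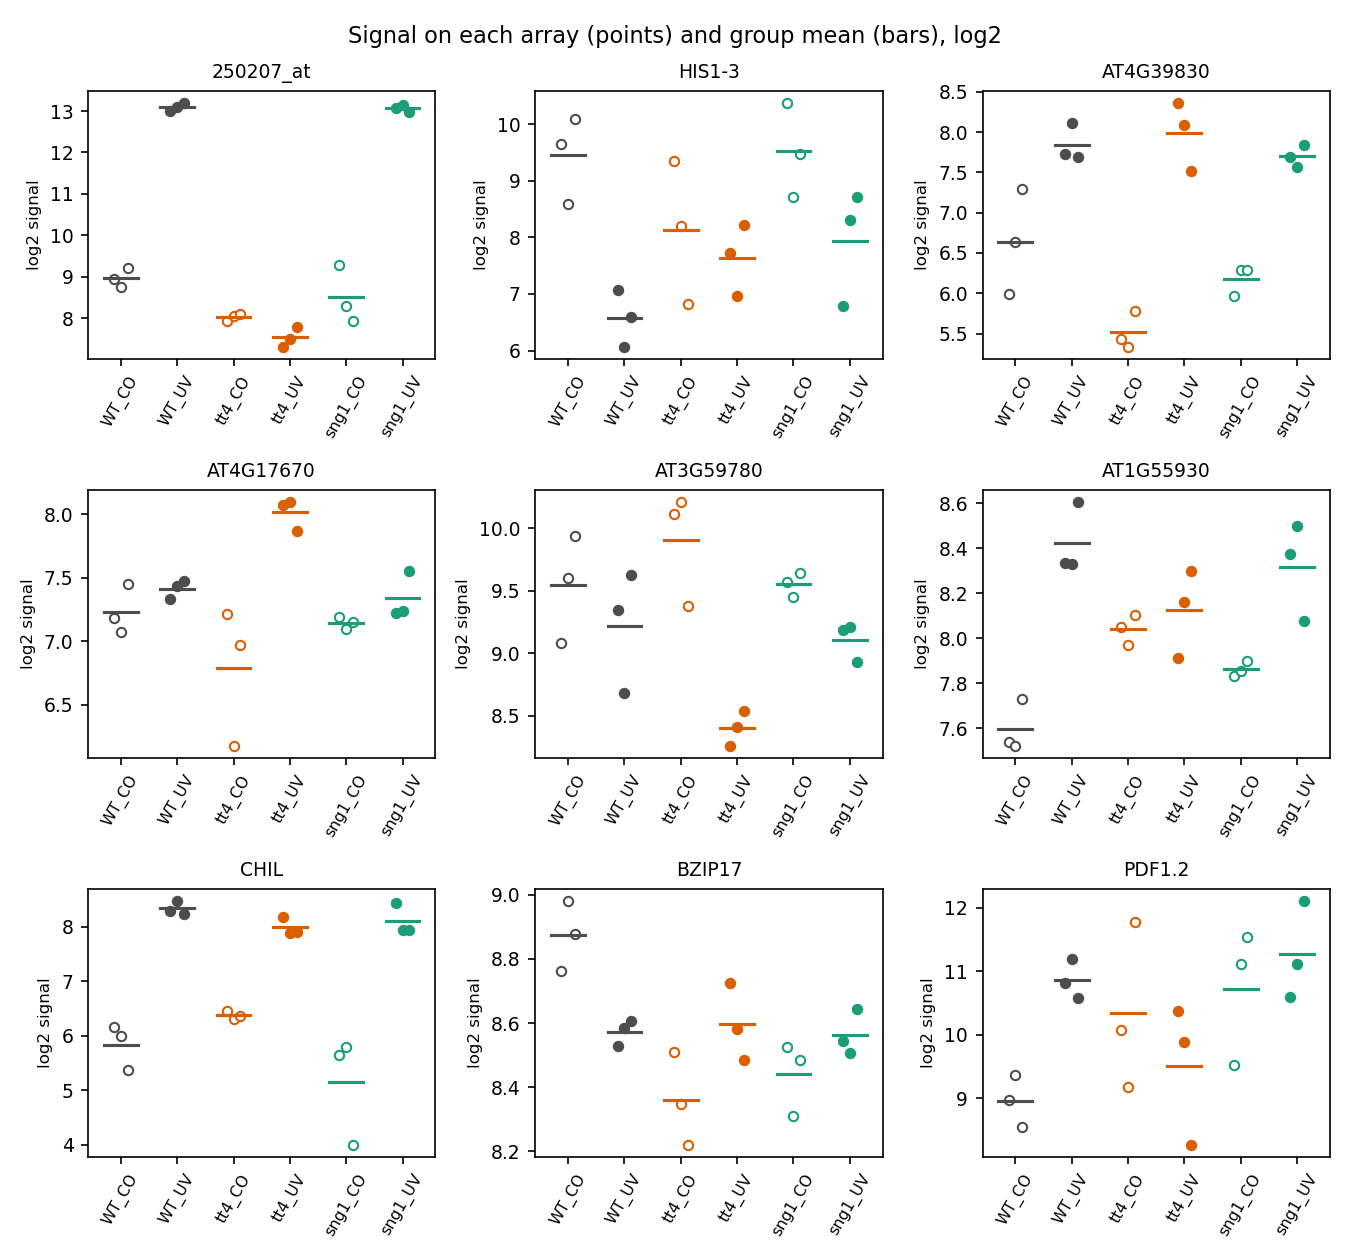
Each panel gives the log2 signal of 1 transcript on all 18 arrays, with CO plants as open and UV plants as filled points and bars at the group means, for WT (grey), tt4 (orange) and sng1 (green). In the panel of 250207_at the tt4 plants under UV lie at 7.31 to 7.79 against 12.97 to 13.20 in WT and sng1; in the other 8 panels the groups overlap more, and no interaction passed.

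The flavonoid pathway is the one that the tt4 mutation interrupts. Of 10 genes listed for its core 5 had a named probe set, all UV-responsive beside 37.5% of all probe sets, with a median interaction of −0.34. These 5 were CHIL and glycosyltransferases of flavonoids, and TT4 was not among them. The 5 light effects were smaller in tt4 than in WT as measured, while 57.6% of all UV-responsive probe sets had the larger one in tt4. For UGT78D1 and UGT78D2 the gap was under 0.05, and without WT_UV 1 or tt4_CO 2 the fall of UGT78D1 was the larger one in tt4. No member passed. CHIL, a chalcone isomerase-like protein that assists chalcone synthase, had log2 signals of 6.16, 5.99 and 5.36 in WT_CO and 8.30, 8.48 and 8.24 in WT_UV. In tt4 it had 6.44, 6.31 and 6.37 in CO and 8.19, 7.89 and 7.91 under UV. The lights were apart in both genotypes, and tt4 lay above WT in CO and below it under UV. The light effect was 2.50 in WT and 1.62 in tt4, with an interaction of −0.88 ± 0.52 (unadjusted p = 0.115, adjusted p over all probe sets 0.808 to 1 across the alternatives).

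AT1G06000, a flavonol rhamnosyltransferase, had 2.61 and 2.27 (interaction −0.34 ± 0.23), and UGT78D3, a flavonol arabinosyltransferase, had 1.39 and 0.85 (−0.54 ± 0.45), with its CO plants at the floor. The interaction of UGT78D3 was −0.11 without tt4_UV 1 and 0 with a floor of 64. UGT78D2, a flavonoid glucosyltransferase, had 1.18 and 1.15 (−0.03 ± 0.24). UGT78D1, a flavonol rhamnosyltransferase, was lower under UV, by 0.46 in WT and 0.43 in tt4. The median of the list ran from −0.59 to −0.03 over the alternatives.

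Of the anthocyanin branch, downstream of the same block, 5 of 10 listed genes were measured and none was UV-responsive. DFR, dihydroflavonol reductase, had an interaction of 0.88 ± 0.73, and UF3GT, a glycosyltransferase of anthocyanins, had 0.86 ± 0.98. Without tt4_CO 3 these were 0.22 and 0.28. BAN, anthocyanidin reductase of the seed coat, was at the floor on all 12 arrays. The list's median of 0.35 became −0.02 with a floor of 64, where AT4G14090 (0.35) and UF3GT changed sign.

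In the list of phenylpropanoid and sinapate ester enzymes, which share precursors with flavonoids, 9 of 26 genes were measured, with a median interaction of 0.03. AT3G13610, the hydroxylase that leads to scopoletin, had the largest interaction, 2.04 ± 1.13 (unadjusted p = 0.0944, and 1.13 without WT_CO 3). Its signals were 6.26, 4 and 7.84 in WT_CO, 4.96, 4 and 4 in tt4_CO, 9.10, 10.39 and 8.59 in WT_UV and 9.87, 10.15 and 9.03 in tt4_UV. The UV plants overlapped, and the plants in CO spread over a wide range down to the floor. UGT84A1, a glucosyltransferase of hydroxycinnamic acids, had a light effect of 2.90 in WT and 2.79 in tt4, with an interaction of −0.11 ± 0.32. UGT72E1, a monolignol glucosyltransferase, had −1.18 and −1.01. ALDH2C4, which makes ferulic and sinapic acid, had −0.31 ± 0.20 (−0.13 without WT_CO 2), and UGT72E2 −0.21 ± 0.23 (−0.09 without WT_CO 3).

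Of UV-B signalling a single gene, HYH, was measured. This transcription factor acts beside HY5 in the UVR8 pathway. Its signals were 5.76, 5.06 and 4.58 in WT_CO and 6.62, 7.20 and 7.32 in WT_UV, against 5.63, 5.09 and 6.72 in tt4_CO and 6.97, 6.85 and 7.08 in tt4_UV. The lights were apart in both genotypes, with tt4_CO 3 close to the UV plants. UV minus CO was 1.92 in WT and 1.15 in tt4, and the interaction of −0.76 ± 0.52 was −0.31 without tt4_CO 3. ATLIG4, the ligase of DNA end joining, had 0.83 and 0.63 (interaction −0.20 ± 0.16), and POLH, a polymerase that copies past UV lesions, had an interaction of −0.63 ± 0.70, and −0.04 without tt4_UV 1.

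Genes of oxidative stress are of interest because flavonoids can act as antioxidants. Of 4 measured stress markers, all UV-responsive, 3 had the larger light effect in tt4 (57.6% of all UV-responsive probe sets did), with a median interaction of 0.68 that ran from 0.04 without tt4_CO 2 to 1.3 without WT_CO 2. AT3G28580, an AAA-type ATPase, had 3.40 in WT and 4.35 in tt4 (0.96 ± 0.59), with 0.59 without WT_CO 1. AT3G28540, of the same family, had 3.18 and 3.87 (0.69 ± 1.34), and its interaction turned to −0.35 without tt4_CO 2 and was also negative without WT_CO 3. STZ, a zinc finger repressor of stress responses, had 0.83 and 1.49 (0.66 ± 0.57, and 0.40 without WT_CO 3). AT2G21640, a standard marker of oxidative stress, had 2.76 in WT and 2.74 in tt4, so its interaction of −0.02 ± 0.46 was near 0.

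The 5 measured antioxidant enzymes had interactions between −0.19 and −0.02. The intervals of 4 lay within a 2-fold difference, beside 68.4% of all probe sets. GR1, a glutathione reductase, had 1.76 in WT and 1.64 in tt4 (−0.13 ± 0.36). TAPX, the ascorbate peroxidase of the thylakoid, had −1.08 and −1.27 (−0.19 ± 0.30), and SAPX, that of the stroma, had 0.78 and 0.62 (−0.15 ± 0.44). Each of these 3 interactions took the opposite sign with at least 1 plant left out. Of 7 measured detoxification genes, the MATE transporter gene AT2G04070 had 4.09 and 4.75 (0.66 ± 0.52, and 0.37 without WT_CO 3), while UGT73B4, a glucosyltransferase, had 1.78 and 1.21 (−0.57 ± 0.41, and −0.24 without WT_UV 2). AER, an alkenal reductase, had −0.39 ± 0.31, and −0.10 without tt4_CO 3. The second MATE gene AT2G04050 had 3.29 and 4.25 (0.96 ± 0.82), with plants in CO from 5.65 to 8.90.

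Stress of the endoplasmic reticulum (ER) arises when proteins fail to fold there, and membrane-bound transcription factors then raise chaperones and degradation genes. All 6 measured probe sets of this list, for 5 genes, had a positive interaction, beside 44.2% of all probe sets, with a median of 0.24. That share is lowered by the 5.28% of probe sets at the floor on all arrays, whose interaction is 0. Their intervals all lay within a 2-fold difference, beside 68.4% of all probe sets, and no member passed. The median of all probe sets was 0, and that of the list ran from 0.16 to 0.39 over the alternatives, with 5 or 6 members positive. The sizes were small but the plants close together, so that this list held 2 of the 3 list members with an unadjusted p under 0.05, a threshold that 4.54% of all probe sets met.

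BZIP17, a membrane-bound transcription factor of ER and salt stress, had signals of 8.76, 8.98 and 8.88 in WT_CO and 8.53, 8.59 and 8.61 in WT_UV. In tt4 it had 8.51, 8.35 and 8.22 in CO and 8.73, 8.58 and 8.49 under UV. WT plants in CO were above all the others, and the UV plants of both genotypes overlapped. UV minus CO was thus −0.30 in WT and 0.24 in tt4, with an interaction of 0.54 ± 0.12 (unadjusted p = 0.000653, adjusted p = 0.768). Its mean light effect was not called, so it is not among the UV-responsive genes.

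DER1, a derlin that takes part in degradation of misfolded proteins, had 0.61 in WT and 0.88 in tt4 (interaction 0.27 ± 0.11, unadjusted p = 0.0264). Its second probe set, which was at or near the floor, had 0.04 ± 0.21. BZIP28, a membrane-bound factor of the ER stress response, had 0.29 and 0.47 (0.19 ± 0.09), and ATERDJ3B, a co-chaperone of the ER, had 0.99 and 1.42 (0.43 ± 0.23). BZIP60, a factor activated by splicing in ER stress, had 1.07 and 1.28 (0.21 ± 0.25). The heat shock proteins, chaperones of other compartments, were mixed. ATHSP22.0 had an interaction of 1.01 ± 0.75 that became −0.13 with a floor of 64 and 0.37 without tt4_CO 2, AT5G48570 had −0.32 ± 0.47 (−0.05 without tt4_CO 3), and AT5G37670 had −0.12 ± 0.36.

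Nuclear photosynthesis genes were bright and varied little between plants. Of 62 listed genes 11 had a named probe set, with 2 positive interactions (beside 44.2% of all probe sets), 9 negative ones and a median of −0.12. The intervals of 10 lay within a 2-fold difference, beside 68.4% of all probe sets. The Calvin cycle enzyme SBPASE had light effects of −1.06 in WT and −1.38 in tt4 (interaction −0.32 ± 0.24, and −0.15 without tt4_UV 3). PRK, which makes the acceptor of carbon dioxide in the same cycle, had −0.85 and −1.09 (−0.24 ± 0.20). LHCB4.1, a light-harvesting protein, had −0.01 and −0.18 (−0.18 ± 0.10, and −0.11 without tt4_UV 3), and PSBW, a subunit of photosystem II, had −0.10 and 0.09 (0.19 ± 0.14, and 0.03 without tt4_CO 1). The median of the list was −0.21 with arrays centred on their medians, a scaling that moved the median of all probe sets by −0.07.

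Of 6 measured genes of auxin response and cell expansion, 4 were UV-responsive and lower under UV, and the median interaction was 0.33. IAA29, a repressor of auxin responses, had −3.36 in WT and −2.81 in tt4 (0.55 ± 0.77), a gap that was 0.01 without WT_UV 3. EXPA15, an expansin that loosens cell walls, had −0.28 and −0.82 (−0.53 ± 0.29), and HAT2, a homeodomain factor of shade and auxin responses, had an interaction of 0.42 ± 0.50, and −0.01 without tt4_UV 3. Of 4 measured genes for glucosinolates and camalexin, BCAT4, an enzyme of chain elongation, had −1.13 and −1.75 (−0.62 ± 0.60, and −0.11 without tt4_UV 1), the glucosyltransferase gene AT2G31790 had −0.36 and −0.72 (−0.36 ± 0.19, and −0.20 without tt4_UV 1), and AOP3 had 0.36 ± 0.26 (0.17 without tt4_CO 3, and 0 with a floor of 64). For tryptophan and the shikimate pathway, the light effect of AT2G04400 was 1.36 and 1.62 (0.25 ± 0.32), and the interactions of AT1G22410 and AT5G66120 were 0.10 and −0.10. All 3 changed sign with 1 plant left out. GI, a clock gene, had the same light effect of 0.46 in both genotypes, with an interaction of −0.01 ± 0.41.

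Defence genes gave the third list member with an unadjusted p under 0.05. PDF1.2, a defensin that marks jasmonate and ethylene responses, was the 1 measured gene of its list. Its signals were 8.97, 9.36 and 8.54 in WT_CO and 10.81, 11.19 and 10.57 in WT_UV. In tt4 it had 10.07, 9.17 and 11.77 in CO and 10.37, 9.88 and 8.26 under UV. The WT groups were apart, and the tt4 groups overlapped over a wide range. The interaction was −2.73 ± 1.02 (unadjusted p = 0.019), with −2.01 without tt4_CO 3. Its mean light effect was not called. WRKY53 and SAG101, genes of the salicylic acid response, had interactions of 0.53 ± 0.69 and 0.10 ± 0.38, which turned to −0.11 without WT_CO 3 and −0.22 without tt4_CO 2.

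Genes of cold and dehydration held the largest interaction of the 82 list members and a wide spread between plants. COR15A, a protein that protects plastid membranes in cold, had 11.97, 10.53 and 11.82 in WT_CO and 9.29, 9.0 and 9.70 in WT_UV. In tt4 it had 11.82, 9.39 and 6.67 in CO and 9.58, 9.69 and 11.59 under UV, so the tt4 plants of either light differed more among themselves than the lights did. The interaction of 3.10 ± 1.52 (unadjusted p = 0.0618) was 1.79 without tt4_CO 3. LTI30, a dehydrin, had 2.46 ± 1.52 and 1.05 without tt4_UV 3, in which its signal was 12.59 against 7.96 and 8.77 in the other tt4 plants under UV. COR15B had 1.18 ± 0.83, and 0.24 without tt4_CO 3. COR47 had 0.65 ± 0.81, and none of the 4 genes was UV-responsive. SAG29, a sugar transporter of senescing leaves, was 12.16 in tt4_UV 3 against 6.07 and 5.14, and its interaction of 1.98 ± 2.81 was −0.20 without that plant. WRKY6, a factor of senescence, had 0.36 ± 0.33 (0.15 without WT_UV 1), and NOL, a reductase of chlorophyll b, −0.09 ± 0.19.

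**Figure D5:**
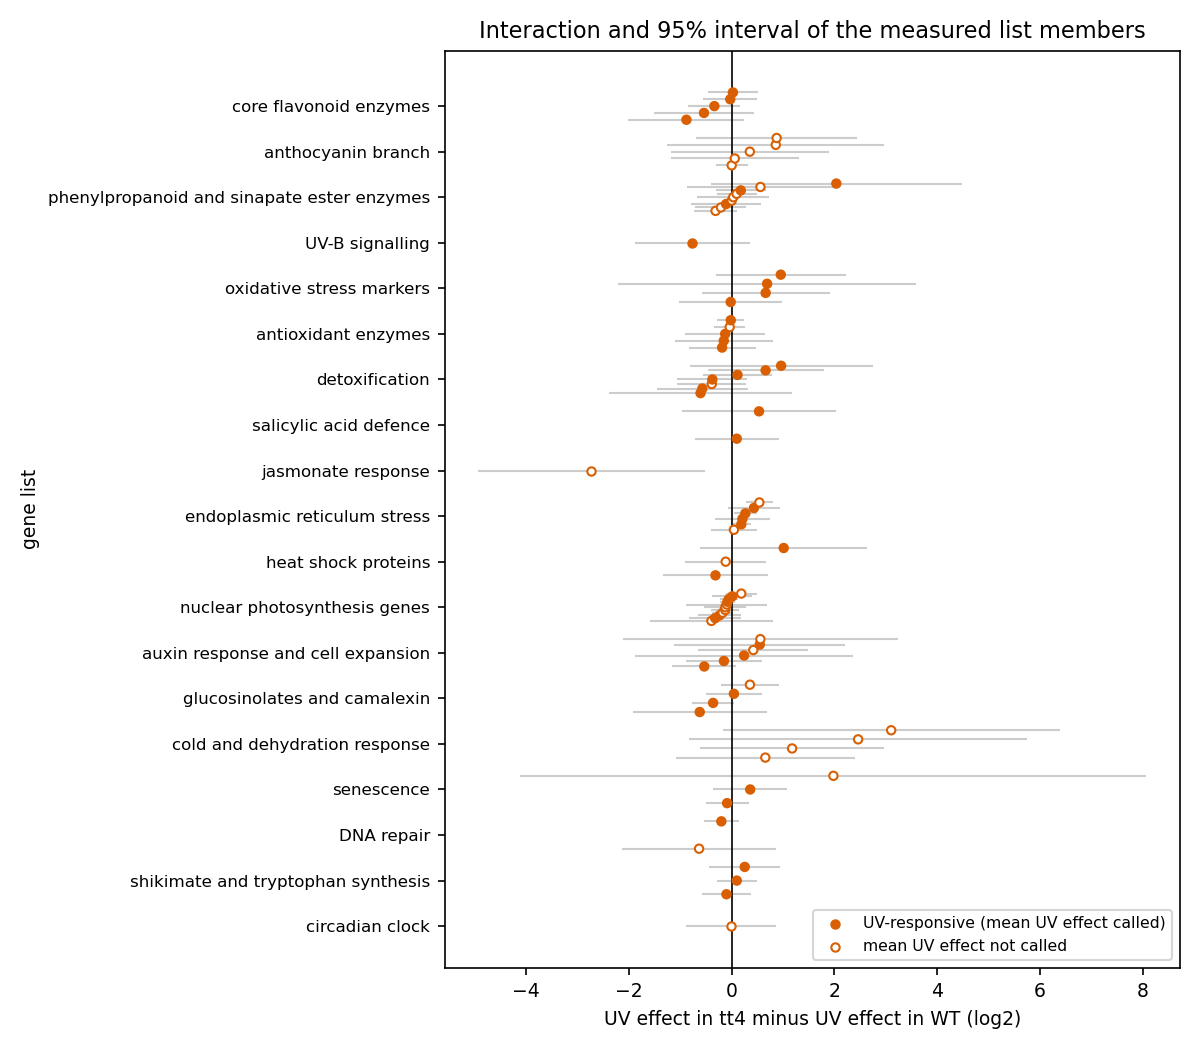
Points are the interactions of the 82 measured probe sets of the pathway lists (log2) with their unadjusted 95% intervals, by list, filled where the gene was UV-responsive. For 44 of the 82 the whole interval lies within a 2-fold difference, beside 68.4% of all probe sets. The points run from −2.73 (PDF1.2) to 3.10 (COR15A), both with wide intervals, and none was called.

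Over all lists, 82 probe sets were measured and 0 were called by limma, beside 0.0044% of all probe sets. At an unadjusted p under 0.05 there were 3 (3.66%), against 4.54% of all probe sets. The interaction was positive for 41 of the 82, beside 44.2% of all probe sets. Of the 49 that were UV-responsive, 29 had the larger and 20 the smaller light effect in tt4, beside 57.6% with the larger one among all UV-responsive probe sets. For 44 of the 82 the interval of the interaction lay within a 2-fold difference, beside 15557 of all 22746 probe sets (68.4%). No list had a called member in any alternative analysis. The lists took only probe sets with 1 gene in the annotation, so the called 250207_at, with none listed, could not enter any.

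No marker of a cell type had a called interaction. The stomatal lineage genes SPCH, MUTE and FMA had interactions of 0.56 ± 0.36, 0.22 ± 0.65 and −0.03 ± 0.19. The trichome gene TRY had −0.55 ± 0.60, and PYK10, a root β-glucosidase with a mean log2 signal of 12.1 in WT_CO, had −0.42 ± 0.59 with light effects of −1.18 in WT and −1.60 in tt4. CLV3 of the shoot meristem was at or near the floor. The nuclear photosynthesis genes, which mark green tissue, had a median level of 13.5 in WT_CO.

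Few probe sets passed the test of tt4 against WT within either light at this number of plants. Under UV, tt4 differed from WT in 3 probe sets (0.0132%): 250207_at, AT3G58050 and the unnamed 260973_at, all lower in tt4. AT3G58050 had 8.97, 9.02 and 9.0 in WT_UV and 8.78, 8.82 and 8.79 in tt4_UV, and in CO it lay near the same level (8.49 to 8.58 in WT and 8.55 to 8.56 in tt4). UV minus CO was 0.45 for WT, 0.24 for tt4 and likewise 0.24 for sng1, and the interaction of −0.22 did not pass (adjusted p = 0.421). In CO, tt4 differed from WT in 5 probe sets (0.022%), 4 higher (0.0176%) and 1 lower (0.0044%): AT5G34800 (1.67), AT2G25990 (0.75) and the unnamed 254450_at (0.59) and 247127_at (0.50) were higher, and AT1G13195, a RING-type zinc finger gene, was lower (−0.82). Their interactions were −1.06, −0.72, −0.70, −0.49 and 0.24, and none passed. The WT plants were at or near the floor for the first 3 of these. Each of these probe sets was named because the count was small, after its values were seen.

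The sng1 interaction, computed in the same way, shares the WT arrays with that of tt4. It had 0 called probe sets (limma), with 688 (3.02%) at an unadjusted p under 0.05 against 1032 (4.54%) for tt4. For 250207_at the sng1 interaction was 0.43 ± 0.36 against −4.62 ± 0.36 for tt4.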

How the data were processed

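Per the labels' protocols, biotin-labelled cRNA from 10 µg of total RNA of a single plant was hybridized to each Affymetrix array. The deposited values were intensities, 1 linear signal per probe set, made with software and scaling not given in the sources used here. The values were linear where log2 had been planned for, so the test for linear values was used. Signals were quantile normalized (limma 3.58.1, R 4.3.3), values under 16 were set to 16 (4 in log2), and 64 control probe sets were removed, leaving 22746.

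A model of 6 group means was fitted to all 18 arrays with limma's lmFit and eBayes (12 residual degrees of freedom), with Benjamini-Hochberg adjustment over all probe sets and calls at an adjusted p under 0.05. Values with ± are estimates and their SE. The number of arrays limits the precision. Probe sets at the floor on all arrays numbered 1201 (5.28%).

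Names came from the supplied annotation and locus tables: 13513 probe sets had 1 gene, 503 several and 8730 none listed. Those without an entry are called unnamed. Named genes were, in each direction, the 15 largest called interactions with 1 gene and a group mean of at least 64, filled up with the largest uncalled ones with an unadjusted p under 0.05 and a called mean light effect, plus up to 3 members per pathway list by the smallest p, plus TT4 and SNG1. Any other gene or unnamed probe set was picked with its values known. The 29 lists (22 of pathways, 7 of markers, 475 entries) had a measured member in 23; regulators of flavonoids, plastid-encoded genes, auxin transport, floral, vascular and epidermal markers had none. Members, lists and the comparison were chosen with earlier results of these data known. The model was also run on simulated data, with independent noise between arrays and effects added only to brighter probe sets. That run is no check of values near the floor or of single plants that stand apart.

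Each array is 1 plant, and the p-values measure the spread between single plants. Alternatives changed the floor, scaling, arrays, filter, trend, weights and replicate block, 1 at a time.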

Additional observations from a re-analysis of the deposited data

Results flagged for a closer look

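The probe set 250207_at stood out because its UV effects differed between the genotypes by a test of the difference itself. The interaction was −4.62 ± 0.36 on the log2 scale (UV effect in tt4 minus UV effect in WT, limma adjusted p = 0.000279), from 4.13 in WT and −0.49 in tt4, with 4.56 in sng1. Its gene is not named in the tables used here.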

How the results depend on the processing

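The call of 250207_at held in all 22 alternatives. The count of called interactions was 1 with a floor of 64, values as deposited, arrays centred on medians, the 12 WT and tt4 arrays alone, a filter on dim probe sets, an intensity trend, array weights, and the replicate number as a block. Without a floor it was 2, both lower in tt4 and both reducing the response. With 1 array left out it ran from 1 to 7 (0 to 6 higher and 1 to 6 lower in tt4, 0 to 5 enlarging and 1 to 7 reducing the response). The 37 probe sets added there each came up in a single fit, and 34 had every group mean under 64. Without the 3 arrays of lowest weight, an alternative chosen after seeing the data, 10 were called, 6 higher and 4 lower, 5 enlarging and 5 reducing the response, with 1624 at an unadjusted p under 0.05. The count of UV-responsive probe sets ran from 7322 to 8565. It was 8404 with the replicate block, which changed no call of an interaction. Deviations from the group means of plants with the same replicate number correlated at −0.333 to 0.510 (median 0.0729), over 0.1 in 9 of 18 pairs. With different numbers they correlated at −0.516 to 0.468 (median −0.0603), over 0.1 in 11 of 36 pairs. Whether replicate numbers pair the plants was not tested. Of 80 recomputed named interactions, 62 never took the opposite sign, although AOP3 and UGT78D3 fell to 0 with a floor of 64, and none became called. With a floor of 64, AT4G14090 was −0.18, ATHSP22.0 −0.13, UF3GT −0.26 and POLH 0.0477. With values as deposited, AT5G37670 was 0.0184 and GI 0.0161. Without the 3 arrays, GI was 0.22, HAT2 −0.16, SAG29 −0.11 and TAPX 0.0345. With 1 array left out, ranges that crossed 0 were −0.0024 to 0.24 for AT1G22410, −0.0201 to 0.465 for AT2G04400, −0.35 to 1.79 for AT3G28540, −0.23 to 0.99 for AT4G14090, −0.32 to 0.033 for AT5G37670, −0.31 to 0.0583 for AT5G66120, −0.23 to 0.33 for GI, −0.43 to 0.0346 for GR1, −0.0144 to 0.78 for HAT2, −0.26 to 0.0207 for NOL, −0.22 to 0.34 for SAG101, −0.20 to 3.31 for SAG29, −0.48 to 0.18 for SAPX, −0.31 to 0.0263 for TAPX and −0.11 to 0.99 for WRKY53. The cause of these reversals was not tested.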

Other observations

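Among the interactions of smallest p that did not pass, 3 more are given here, picked with their values known. OTP80, a pentatricopeptide repeat protein of RNA editing in organelles, was at the floor in all WT plants in CO and at 5.69, 5.30 and 5.65 in WT under UV. In tt4 it was at 5.29, 5.17 and 4.81 in CO and at 4, 4.98 and 5.16 under UV. Its interaction was −1.92 ± 0.36 (limma adjusted p = 0.421), close to the floor throughout. The unnamed probe set 250285_at had a UV effect of −0.51 in WT and −0.13 in tt4 and an interaction of 0.38 ± 0.07 (limma adjusted p = 0.421). The unnamed probe set 246295_at had 0.64 in WT, 0.58 in sng1 and −0.02 in tt4, with an interaction of −0.65 ± 0.13 (limma adjusted p = 0.571).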
